A study of Mus musculus with 2 samples.

Results

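To assess how interferon receptors and JAK-STAT signalling were expressed in mouse melanoma tumours, 9 genes of the pathway were followed through single-cell RNA-seq of tumour-infiltrating leukocytes. They comprised the ligand Ifng, the receptor chains Ifngr1, Ifngr2, Ifnar1 and Ifnar2, the transcription factors Stat2 and Stat3, and the inhibitors Socs1 and Socs3. The genes were found by their symbols among the 31053 genes of the expression matrix, and all 9 were present. Live CD45+ cells had been sorted from B16 melanomas of 8-week-old mice, pooled within each genotype. Mice labelled WT were Mettl3 fl/fl Lyz2 +/+, and mice labelled KO, the METTL3-deficient group, were Mettl3 fl/fl Lyz2 cre/+, so that both groups carried the floxed alleles and the groups differed in the Cre. METTL3 is the catalytic subunit of the enzyme that writes the m6A mark on mRNA. Lyz2-driven Cre acts in macrophages, monocytes and granulocytes and in a part of the dendritic cells, but not in lymphocytes or in the implanted melanoma cells. There was 1 library per genotype, so no difference between genotypes could be tested against the spread between mice.

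Interferon-γ, encoded by Ifng, is made chiefly by activated T cells and NK cells and binds a receptor built from IFNGR1 and IFNGR2, which signals through JAK1 and JAK2. Type I interferons bind IFNAR1 and IFNAR2, whose kinases JAK1 and TYK2 phosphorylate STAT2, which acts with IRF9 to activate antiviral genes. STAT3 serves cytokines such as IL-6 and IL-10, which use other receptors, and the study linked loss of METTL3 in macrophages to STAT3 activity. SOCS1 and SOCS3 are induced by these pathways and inhibit them in turn, SOCS1 chiefly at the interferon receptors and SOCS3 chiefly at gp130 and the G-CSF receptor.

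In the GENCODE vM21 annotation of build GRCm38, the build of these data, Ifnar2 (chr16:91372783-91405589), Ifnar1 (chr16:91485238-91507441) and Ifngr2 (chr16:91547072-91565623) lay on the same strand within 193 kb of chromosome 16. The other members were scattered: Socs1 at chr16:10782240-10785536, Ifng at chr10:118441046-118445892, Ifngr1 at chr10:19591949-19610229, Stat2 at chr10:128270559-128292849, Stat3 at chr11:100885098-100939540 and Socs3 at chr11:117966079-117970047. RefSeq promoters, from 250 bases before to 50 bases after each start (GRCm38.p6), matched all 9 members. They were searched on both strands for the palindromic GAS-type letters TTCNNNGAA, bound by STAT dimers, and for the ISRE-type letters GAAANNGAAA (TTTCNNTTTC on the other strand), bound by the complex that holds STAT2 and IRF9. GAS-type letters stood in the windows of 4 members (Ifng, Ifnar1, Ifnar2 and Socs3), against 8.3% of 32851 promoters. ISRE-type letters stood in the windows of 2 members, Stat2 and Socs1, against 3.44% of all promoters. The windows of Stat2, Socs1 and Socs3 are shown, since the first 2 genes had higher counts in the same myeloid groups and Socs3 is the member best known as a STAT3 target. Capitals mark the matched letters, which in Socs1 are 2 matches that overlap each other. A match describes the letters only.
Stat2, chr10:128270248-128270547, plus strand: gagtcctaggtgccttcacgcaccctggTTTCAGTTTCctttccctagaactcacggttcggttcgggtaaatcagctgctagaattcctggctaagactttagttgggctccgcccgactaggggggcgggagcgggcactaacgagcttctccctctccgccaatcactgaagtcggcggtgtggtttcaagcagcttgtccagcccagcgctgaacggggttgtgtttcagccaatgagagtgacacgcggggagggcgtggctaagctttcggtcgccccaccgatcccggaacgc
Socs1, chr16:10785487-10785786, minus strand: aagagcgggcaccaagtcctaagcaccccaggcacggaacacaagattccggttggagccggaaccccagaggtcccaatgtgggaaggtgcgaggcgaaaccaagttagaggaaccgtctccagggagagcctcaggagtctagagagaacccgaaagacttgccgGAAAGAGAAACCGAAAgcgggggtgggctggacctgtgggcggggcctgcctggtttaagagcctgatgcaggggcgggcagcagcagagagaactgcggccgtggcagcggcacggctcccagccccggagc
Socs3, chr11:117969317-117969616, minus strand: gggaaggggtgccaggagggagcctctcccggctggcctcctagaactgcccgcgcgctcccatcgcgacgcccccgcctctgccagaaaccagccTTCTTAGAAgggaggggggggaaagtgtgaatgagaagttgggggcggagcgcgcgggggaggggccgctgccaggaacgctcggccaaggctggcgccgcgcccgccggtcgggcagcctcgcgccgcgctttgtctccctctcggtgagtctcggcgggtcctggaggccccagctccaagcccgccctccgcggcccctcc

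After filtering, 5405 cells labelled WT and 7625 cells labelled KO were kept, with a median of 4148 and 3567 UMIs per cell, and 13 barcode sequences occurred in both libraries. Levels are UMIs summed over the cells of a class and scaled to 1000000 UMIs of that class (CPM), with an exact 95% Poisson interval, and ratios are log2 of KO over WT with an exact conditional binomial interval. These intervals cover counting error only, not differences between mice. Clusters were named from marker genes, and macrophage-like (1319 and 1850 cells), monocyte-like (269 and 1027) and CD8 T-like cells (351 and 425) were the classes followed most closely. In each of these 3 classes every marker of its own list was detected, with summed levels in the libraries labelled WT and KO of 15462 and 13686 CPM for macrophage markers, 7853 and 8494 CPM for monocyte markers and 880 and 755 CPM for the CD8 chains. A further cluster led by Ccl24 (626 and 1116 cells) carried both monocyte and macrophage markers and was left without a cell type name. The targeted gene was not lower in macrophage-like cells of the library labelled KO, with Mettl3 at 8.59 CPM labelled WT and 10.1 CPM labelled KO, but 3′ tags can lie outside the deleted part and so check nothing. Lyz2, of which one allele carries the Cre, was at 5767 and 2532 CPM in the same cells.

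To compare the genotypes, each member was called different where its levels differed at least 1.5-fold with an interval that excluded 0 and where both libraries together held at least 30 UMIs. Calls were counted in the 13 classes that had at least 100 cells in each library, which leaves out NK-like and pDC-like cells, and cells of mixed lineage or without a name were not counted. Of 101 combinations of a member and a class there, 5 were called, all 5 lower in the library labelled KO, and 0 were called higher. These were Ifngr1 in monocyte-like, cDC1-like and mature DC-like cells, Ifnar1 in granulocyte-like cells and Ifng in macrophage-like cells. Over the 13 classes the share of all genes called lower lay between 1.03% (unsplit T-like) and 3.44% (melanoma-like). The share called higher lay between 2.24% (cDC2-like) and 5.79% (B-like). Among the cells left out, Stat2 was past the same limit and higher in pDC-like cells and in mixed-lineage cells (220 and 180 cells, 96.5 and 160 CPM, log2 ratio 0.73, 0.39 to 1.08), and Ifng in NK-like cells was past it and lower. The mixed-lineage cells differed in make-up, with summed granulocyte markers at 23441 and 16265 CPM and monocyte markers at 2907 and 4043 CPM. The part of this make-up in their ratio was not tested. In macrophage-like cells 1 of 9 members was called, against 5.08% of 11301 genes. The count was 1 of 8 members in monocyte-like (background 4.98%), granulocyte-like (8.91%), cDC1-like (5.81%) and mature DC-like cells (6.15%). It was 0 of 8 in the Ccl24-led cluster (4.4%), nonclassical monocyte-like (4.83%), cDC2-like (4.61%), CD8 T-like (5.46%), CD4 T-like (5.27%), unsplit T-like (4.63%) and melanoma-like cells (7.42%), and 0 of 4 in B-like cells (8.92%). The members were thus called about as often as genes at large. Below that limit, smaller differences had a direction: the interval lay above 0 in 5 of 13 classes for Stat2, 4 of 13 for Stat3 and 3 of 13 for Socs1, and below 0 in none of them for these genes. Ifnar2 had a ratio below 0 in 10 of 12 classes, with the interval below 0 in 2 and above 0 in none. Over all members the interval lay above 0 in 16 of the 101 combinations and below 0 in 10, where over all genes it lay above 0 in 9.29% and below 0 in 7.34% of 84637 combinations of a gene and a class. These shares were not matched for counts, and an interval of counting error excludes 0 more readily where a gene has more UMIs.

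Among named classes, Ifng was found mostly in lymphocytes. In CD8 T-like cells it was measured at 284 CPM labelled WT (502 UMIs) and 344 CPM labelled KO (736 UMIs), and in NK-like cells at 190 and 98.5 CPM. Unsplit T-like cells, T-cell clusters that did not meet the naming rule of either subset and held CD8 chains at 469 and 378 CPM and Cd4 at 18.7 and 35.3 CPM, stood at 65.6 and 86.6 CPM, and CD4 T-like cells at 34.9 and 67.5 CPM. No other named class exceeded 5.18 CPM, and no UMI was found in 140 and 100 B-like cells, which allows a share of up to 2.14% and 3% of cells with a UMI. The order of the classes was led by CD8 T-like cells in both libraries, although in the library labelled WT their interval overlapped that of NK-like cells.

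Unlike the summed level, the share of CD8 T-like cells with an Ifng UMI showed no difference beyond counting error. It was 33.9% labelled WT (95% Clopper-Pearson interval 29.0 to 39.1) and 31.1% labelled KO (26.7 to 35.7), and after thinning each cell to 1000 UMIs it was 15.6% and 13.5%. By contrast, the log2 ratio of the summed level was 0.28 (0.11 to 0.45), under the 1.5-fold limit used here. The difference in share, -2.84 percentage points (-9.65 to 3.93), became 4.21 when each library was clustered on its own. The log2 ratio of the level was then 0.44, so that share and level had the same direction there. A few cells carried much of the Ifng: 1 cell held 136 of the 502 UMIs in the library labelled WT, and 1 cell held 122 of the 736 in the library labelled KO. Without the top cell of each library the levels were 210 and 291 CPM and the ratio 0.47 (0.28 to 0.66). Markers of NK cells were summed at 123 and 243 CPM in these CD8 T-like cells, with 7 of 7 higher in the library labelled KO. Markers of mature dendritic cells were summed at 35.6 and 89.8 CPM, also with 7 of 7 higher. The part of either list in the difference was not tested. In macrophage-like cells, which should lack the transcript, the share with an Ifng UMI was 1.74% and 0.865% at a median of 10064 and 6779 UMIs per cell.

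In NK-like cells the summed level of Ifng was lower in the library labelled KO, on 35 and 37 UMIs (log2 ratio -0.95, -1.65 to -0.24). The share with an Ifng UMI was 28.7% (19.5 to 39.4) of 87 cells labelled WT and 12.6% (8.22 to 18.1) of 191 cells labelled KO. After thinning the shares were 15.5% (8.51 to 25.0) and 8.09% (4.49 to 13.2), whose intervals overlapped. The class had fewer than 100 cells in the library labelled WT, so that it was left out of the counts of calls.

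**Figure D1:**
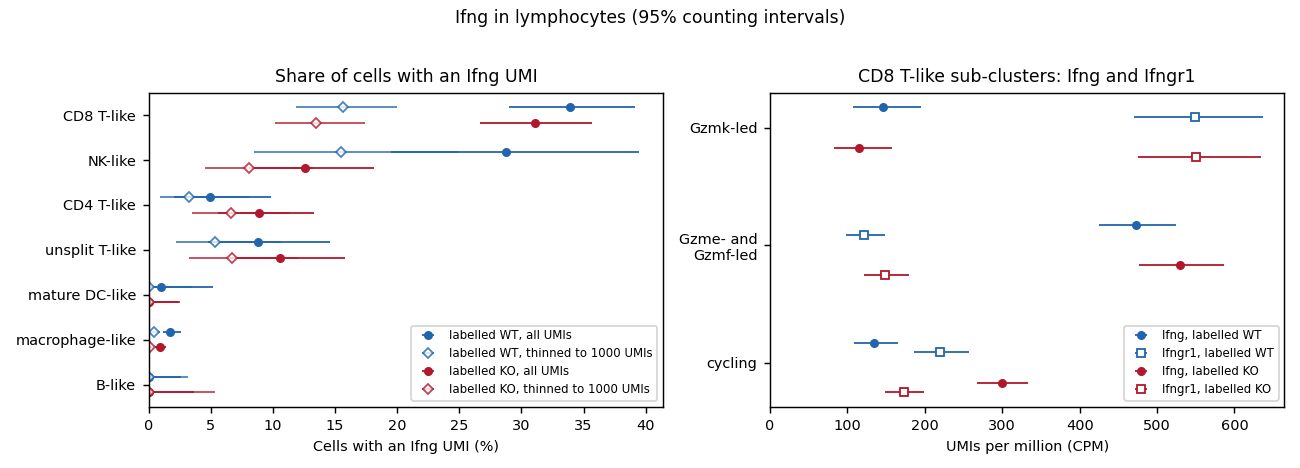
Left, share of cells (%) with at least 1 Ifng UMI in 7 cell classes of each library, for all UMIs (filled circles) and after thinning to 1000 UMIs (open diamonds); right, level in CPM of Ifng (filled circles) and Ifngr1 (open squares) in 3 sub-clusters of CD8 T-like cells. Bars are 95% counting intervals. CD8 T-like shares of the libraries lie close together at 33.9% and 31.1%, and the gap in Ifng level of cycling cells, 134 against 299 CPM, is 125 against 192 CPM without its top cell in each library.

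Sub-clusters of CD8 T-like cells separated the ligand from its receptor. Cells led by Gzme and Gzmf, granzymes of cytotoxic effector cells (119 and 100 cells), had the highest Ifng level, 473 CPM labelled WT and 530 CPM labelled KO, and the lowest Ifngr1 level, 121 and 148 CPM. A second sub-cluster, called Gzmk-led here (169 and 235 cells), had leading genes headed by Itga1 that included Ccl5 and Gzmk. It had Ifng at 146 and 115 CPM and Ifngr1 at 549 and 550 CPM. Stat3 followed the opposite order to Ifngr1, at 448 and 376 CPM in the first sub-cluster and 184 and 213 CPM in the second. In cycling CD8 T-like cells (63 and 90 cells) Ifng was at 134 CPM labelled WT and 299 CPM labelled KO, a log2 ratio of 1.16 (0.82 to 1.51), whereas the ratios in the other two sub-clusters had intervals that included 0. These values rested in part on single cells. The WT cell with 136 Ifng UMIs lay in the Gzme-led sub-cluster and the KO cell with 122 in the cycling one. With the cell of the most Ifng UMIs left out of each sub-cluster in each library, an alternative added after seeing the data, Ifng was at 306 and 460 CPM in the Gzme-led cells (0.59, 0.34 to 0.84) and at 125 and 192 CPM in cycling cells (0.62, 0.24 to 1.003). The cells left out held 136 and 50 UMIs in the Gzme-led and 9 and 122 UMIs in the cycling sub-cluster. The gaps of these 2 sub-clusters were then alike in size, and the Gzmk-led cells had 138 and 104 CPM (-0.41, -1.09 to 0.27). The 9 members had been kept out of the genes used to form clusters, but a cluster and its level still come from the same cells, so that the differences between sub-clusters are descriptions.

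**Figure D2:**
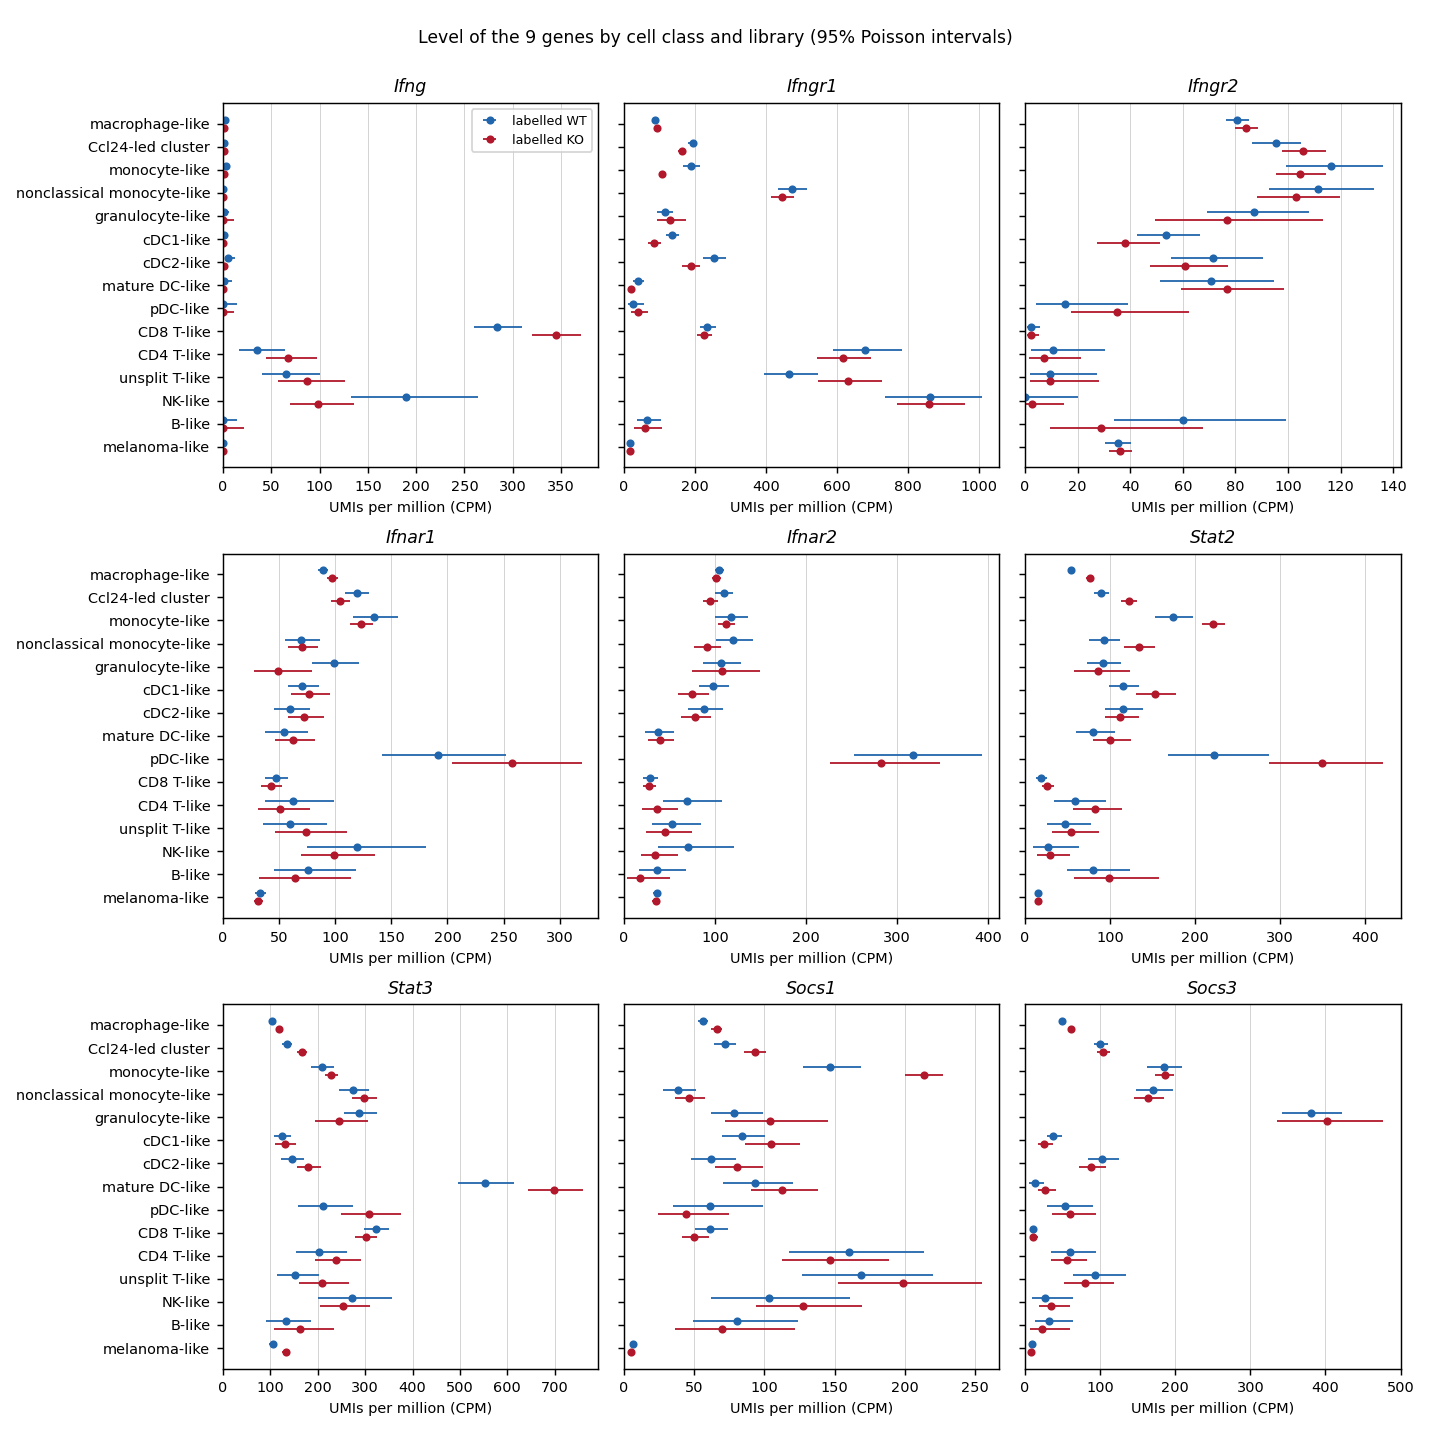
Level in CPM (linear axis from 0) of the 9 genes in 15 cell classes, with the library labelled WT in blue and the library labelled KO in red. Bars are exact 95% Poisson intervals. Each gene has its own pattern over classes, such as Ifng in lymphocytes, Socs3 in granulocyte-like cells and Stat3 in mature DC-like cells, and within most classes the libraries lie close together.

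The 2 chains of the interferon-γ receptor were highest in different cells, Ifngr1 in lymphocytes and Ifngr2 in myeloid cells. Ifngr1, the ligand-binding chain, was highest in NK-like cells (863 CPM labelled WT and 860 CPM labelled KO), followed by CD4 T-like cells (680 and 617), unsplit T-like cells (465 and 632) and nonclassical monocyte-like cells (475 and 445). It was lowest in mature DC-like (38.5 and 19.6), pDC-like (26.8 and 38.1) and melanoma-like cells (16.8 and 16). In the library labelled WT the intervals of NK-like and CD4 T-like cells overlapped, as did those of nonclassical monocyte-like and unsplit T-like cells. Ifngr2, the chain that brings JAK2 to the complex, was instead highest in myeloid cells, with 116 and 105 CPM in monocyte-like cells, 111 and 103 CPM in nonclassical monocyte-like cells and 80.6 and 84.1 CPM in macrophage-like cells. In CD8 T-like cells it rested on 4 and 5 UMIs (2.26 and 2.34 CPM), and in NK-like cells on 0 and 1 UMI. The level of Ifngr2 in NK-like cells labelled WT was thus under the floor set by a count of 3, 16.3 CPM. Across the 26 points given by 13 classes in 2 libraries, Ifngr1 and Ifngr2 had a Pearson r of -0.33 on log2(CPM + 1), with nonclassical monocyte-like cells near the top for both and melanoma-like cells low in both. Ifng and Ifngr2 had an r of -0.88. Each is a description of classes that share their libraries.

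Ifngr1 was the member with the most frequent difference between the libraries. Its level in monocyte-like cells was 189 CPM labelled WT (260 UMIs) and 108 CPM labelled KO (498 UMIs), which is 1.75-fold lower in the library labelled KO (log2 ratio -0.81, -1.03 to -0.58). It came inside the 1.5-fold limit with doublets kept (-0.36) and with each cell gated by its own marker score (-0.55). Within the class it was -0.65 (-0.91 to -0.39) in the cluster led by Dmkn and Vcan (229 and 146 CPM). In the cluster led by interferon-induced genes it was -0.65 (-1.08 to -0.20), at 119 and 75.6 CPM. That cluster held 80 of 269 cells labelled WT and 435 of 1027 labelled KO, and the part of this shift in the class ratio was not tested. The ratio was past the 1.5-fold limit in cDC1-like cells as well (136 and 84.1 CPM, log2 ratio -0.69, -1.06 to -0.33). In mature DC-like cells it was also past it, on 24 and 16 UMIs only (log2 ratio -0.98, -1.99 to -0.01), but not with doublets kept (-0.50). Smaller differences of the same direction were measured in cDC2-like cells (254 and 187 CPM, log2 ratio -0.44) and in the Ccl24-led cluster (193 and 164 CPM, log2 ratio -0.24). Macrophage-like cells, at 88.3 and 93.3 CPM, and NK-like cells showed no difference beyond counting error. In unsplit T-like cells the order was reversed (465 and 632 CPM, log2 ratio 0.44, 0.13 to 0.76). Of 12 classes with enough counts, the interval was below 0 in 5 and above 0 in 1. When each library was clustered on its own, Ifngr1 in cDC1-like cells had a log2 ratio of 0.089, and with 15 principal components it had -0.41, so that its direction and its call there depended on which cells were taken.

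The chains of the type I interferon receptor were broader. Ifnar2 was highest in pDC-like cells (317 CPM labelled WT and 283 CPM labelled KO), plasmacytoid dendritic cells being known as strong producers of type I interferon. It lay between 74.8 and 120 CPM in all other myeloid classes except mature DC-like cells (36.9 and 39.1 CPM). Ifnar1 was also highest in pDC-like cells (191 and 257 CPM), followed by monocyte-like cells (135 and 123 CPM), whose interval overlapped that of pDC-like cells in the library labelled WT. Both chains were low in CD8 T-like cells, where Ifnar1 was at 46.9 and 42.6 CPM and Ifnar2 at 28.3 and 27.6 CPM.

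In macrophage-like cells the receptors of type I interferon hardly differed between the libraries, with Ifnar1 at 88.9 and 97.1 CPM (log2 ratio 0.13, 0.02 to 0.23) and Ifnar2 at 105 and 102 CPM. In granulocyte-like cells Ifnar1 was past the limit, at 98.8 CPM labelled WT (93 UMIs) and 49.0 CPM labelled KO (16 UMIs), a log2 ratio of -1.01 (-1.88 to -0.24). The ratio became -0.048 with sub-clusters of mixed lineage kept and -0.23 with a stricter filter on cells, so that the call depended on the choice of cells. That class also held different cells in the libraries, 664 labelled WT and 287 labelled KO, and its summed basophil or mast cell markers were at 51.0 and 267 CPM, 6 of 6 higher in the library labelled KO. The part of these cells in the difference was not tested. The ligands themselves were scarce. Of 11 genes of type I and type III interferons, only Ifnb1 reached 30 UMIs in macrophage-like cells, with 22 UMIs labelled WT and 10 labelled KO.

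Stat2, which carries the signal of type I interferon with IRF9, was highest in pDC-like cells (222 CPM labelled WT and 349 CPM labelled KO, log2 ratio 0.66, 0.18 to 1.14, on 58 and 110 UMIs) and next in monocyte-like cells (174 and 221 CPM). It was lowest in CD8 T-like (18.6 and 25.7 CPM) and melanoma-like cells (15.2 and 15.4 CPM). In macrophage-like cells Stat2 was measured at 53.9 CPM labelled WT (866 UMIs) and 76.1 CPM labelled KO (1230 UMIs), a log2 ratio of 0.50 (0.37 to 0.63). The ratio had a like size in the Ccl24-led cluster (89.9 and 122 CPM, 0.44), in nonclassical monocyte-like cells (92.6 and 134 CPM, 0.53) and in cDC1-like cells (115 and 152 CPM, 0.40). Granulocyte-like cells (-0.09, -0.76 to 0.54) and cDC2-like cells (-0.03, -0.41 to 0.35) had point values just below 0. When each library was clustered on its own, the ratio in macrophage-like cells was 0.026. In melanoma-like cells, which do not carry the Cre, it was 0.02 (-0.39 to 0.44), and in CD8 T-like cells 0.46 (-0.18 to 1.13), an interval that neither excluded 0 nor the ratio of macrophage-like cells.

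Clusters within these classes did not share the difference evenly. In the macrophage-like cluster led by Mmp12, Nos2 and Inhba (434 and 944 cells), Stat2 was at 62.1 and 109 CPM (log2 ratio 0.81, 0.59 to 1.04). The cluster called C1q-led here (634 and 649 cells) had leading genes headed by Ch25h that included the complement genes C1qa and C1qc. Stat2 was at 51.2 and 58.4 CPM there (0.19), and in cycling macrophage-like cells at 52.4 and 58.8 CPM (0.17), both with intervals that included 0. Among monocyte-like cells, Stat2 was at 83.3 and 177 CPM in the cluster led by Dmkn and Vcan (189 and 592 cells), a log2 ratio of 1.09 (0.72 to 1.47). It had the opposite direction in the cluster led by interferon-induced genes, at 334 CPM labelled WT and 259 CPM labelled KO (80 and 435 cells, log2 ratio -0.36, -0.61 to -0.11). The ratio of the whole monocyte-like class, 0.35, hence joined 2 clusters with opposite differences. It ranged from 0.064, with equal weight for each cluster, to 0.68 with doublets kept, and was 1.09 without the interferon-led cluster.

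**Figure D3:**
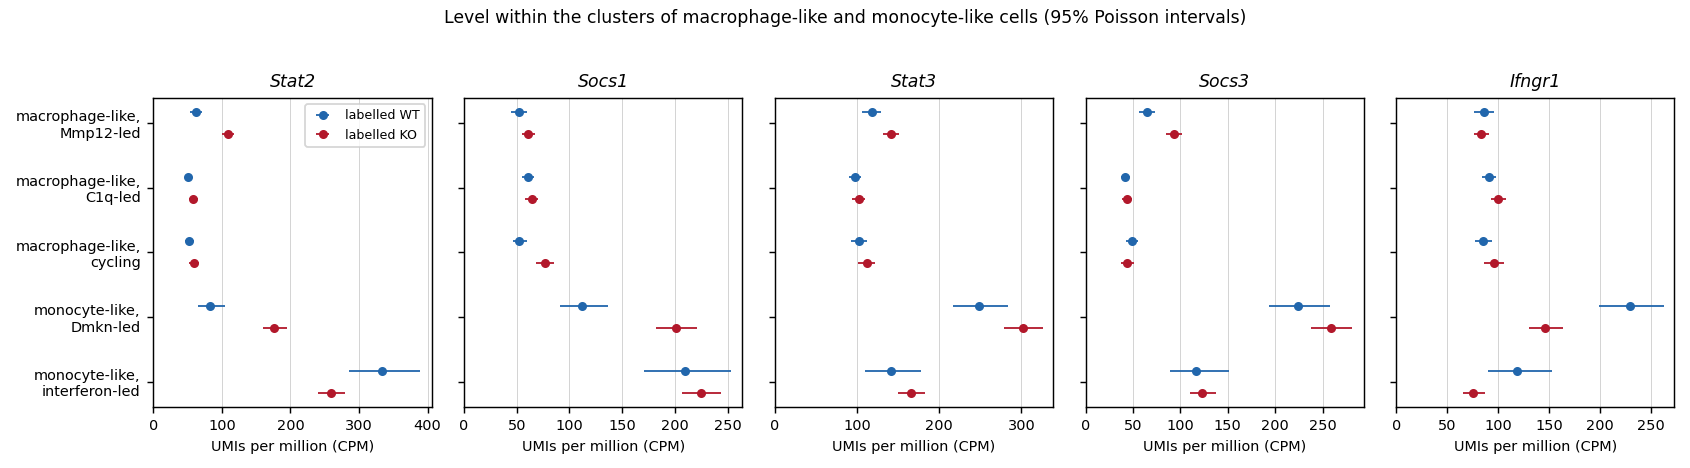
Level in CPM (linear axis from 0) of Stat2, Socs1, Stat3, Socs3 and Ifngr1 in 3 clusters of macrophage-like cells and 2 clusters of monocyte-like cells, with the library labelled WT in blue and the library labelled KO in red. Bars are exact 95% Poisson intervals. Stat2 is apart between the libraries in the Mmp12-led and Dmkn-led clusters, close together in the C1q-led and cycling clusters, and in the opposite order in the interferon-led cluster.

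Stat3 was the member that set mature DC-like cells apart. These migratory dendritic cells, marked by Ccr7 and Fscn1, held 552 CPM labelled WT and 699 CPM labelled KO, above every other class in both libraries without overlap of the intervals. CD8 T-like cells followed in the library labelled WT (323 CPM, with 301 CPM labelled KO) and pDC-like cells in the library labelled KO (308 CPM, with 210 CPM labelled WT). Macrophage-like cells had the lowest level of the 15 classes shown, 103 CPM labelled WT (1657 UMIs) and 118 CPM labelled KO (1904 UMIs). Their interval overlapped that of the next class in both libraries, melanoma-like cells labelled WT and cDC1-like cells labelled KO.

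The log2 ratio of Stat3 in macrophage-like cells was 0.19 (0.10 to 0.29), an interval above 0 and well inside the 1.5-fold limit. It was 0.26 (0.09 to 0.44) in the Mmp12-led cluster, against 0.06 in the C1q-led and 0.13 in the cycling cluster, and 0.30 (0.15 to 0.45) in the Ccl24-led cluster. Melanoma-like cells, which have no Cre, showed a ratio of like size, with 106 and 132 CPM (0.32, 0.17 to 0.46). Mature DC-like cells had 0.34 (0.15 to 0.54). In granulocyte-like and CD8 T-like cells the point values were below 0, with intervals from -0.61 to 0.13 and from -0.27 to 0.06. The granulocyte-like cluster led by Retnlg had 339 and 221 CPM (-0.62, -1.13 to -0.13), past the 1.5-fold limit and lower. The one led by Lcn2 had 225 and 283 CPM (0.33, -0.26 to 0.90). The ratio was -0.25 (-0.49 to -0.02) in Gzme-led CD8 T-like cells. It was 0.21 in Gzmk-led and 0.19 in cycling ones, both with intervals that included 0. Clustering each library on its own gave a log2 ratio of -0.036 in macrophage-like cells.

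Socs1, the inhibitor whose promoter window holds the overlapping ISRE-type letters shown above, was highest in monocyte-like cells labelled KO (214 CPM, with 147 CPM labelled WT) and in unsplit T-like (169 and 199 CPM) and CD4 T-like cells (160 and 147 CPM). Intervals of these 3 classes overlapped in the library labelled WT, whereas in the library labelled KO that of monocyte-like cells (200.4 to 227 CPM) lay above that of CD4 T-like cells (112 to 189 CPM). In melanoma-like cells it was close to absent, at 6.17 and 5.23 CPM. The log2 ratio was 0.54 (0.32 to 0.76) in monocyte-like cells, 0.38 (0.18 to 0.59) in the Ccl24-led cluster and 0.23 (0.10 to 0.36) in macrophage-like cells. Within monocyte-like cells it was 0.84 (0.52 to 1.18) in the Dmkn-led cluster, where Stat2 also had its widest gap, and 0.10 in the interferon-led cluster. Within macrophage-like cells the cycling cluster had the largest ratio, 52.6 and 76.7 CPM (0.54, 0.30 to 0.80), so that the clusters ranked differently for Socs1 and Stat2.

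Socs3 was above all a granulocyte transcript. Granulocyte-like cells held 380 CPM labelled WT and 402 CPM labelled KO. Next came monocyte-like (185 and 186 CPM) and nonclassical monocyte-like cells (171 and 164 CPM), whose intervals did not overlap that of granulocyte-like cells. Among the 13 classes with at least 100 cells in each library, the G-CSF receptor gene Csf3r, whose signal SOCS3 restrains, was highest in the same cells (1745 and 2063 CPM). CD8 T-like cells were at 10.2 and 11.2 CPM.

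In macrophage-like cells Socs3 was at 48.8 CPM labelled WT (784 UMIs) and 60.7 CPM labelled KO (981 UMIs), a log2 ratio of 0.32 (0.18 to 0.45). The difference was measured in the Mmp12-led cluster (64.7 and 93.0 CPM, 0.52, 0.29 to 0.75), whereas the ratios in the C1q-led cluster (0.05) and in cycling cells (-0.15) had intervals that included 0. It did not hold under every way of choosing the cells: the log2 ratio was -0.049 with 15 principal components and -0.28 when each library was clustered on its own. Socs3 is also an early-response gene, and in macrophage-like cells 8 of 10 genes of a dissociation stress list had ratios above 0, with 0 called and a median of 0.24, where the median of all genes was 0.00397. The part of tissue dissociation was not tested.

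Ifng in macrophage-like cells, the 1 call in that class, rested on 32 UMIs labelled WT and 17 labelled KO (1.99 and 1.05 CPM, log2 ratio -0.92, -1.86 to -0.03). Summed T-cell markers in the same cells were at 57.1 and 45.1 CPM, with 2 of 8 higher in the library labelled KO. When each cell was gated by its own marker score the log2 ratio was 0.010.

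Markers of monocytes moved with the group in macrophage-like cells. They were summed at 860 CPM labelled WT and 1388 CPM labelled KO, 7 of 8 higher in the library labelled KO, and the share of monocyte-like cells was 4.98% and 13.5%. Stat2, Stat3, Socs1 and Socs3 were each higher in monocyte-like than in macrophage-like cells, and the part of cells at the boundary of these classes in their ratios was not tested. With macrophage-like cells, monocyte-like cells and the Ccl24-led cluster summed, an alternative added after seeing the data, the log2 ratio was 0.70 (0.61 to 0.79) for Stat2, 0.58 (0.49 to 0.68) for Socs1, 0.44 (0.35 to 0.53) for Socs3 and 0.35 (0.27 to 0.42) for Stat3. It was -0.06 for Ifngr1 and for Ifnar2, 0.08 for Ifnar1 and 0.11 for Ifngr2. In this sum Stat2 was past the 1.5-fold limit and higher, and Ifng was past it and lower, on 39 and 26 UMIs (-0.87, -1.65 to -0.12). The transducers and inhibitors thus had higher ratios than the receptors in this sum, which also takes in the larger share of monocyte-like cells.

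**Figure D4:**
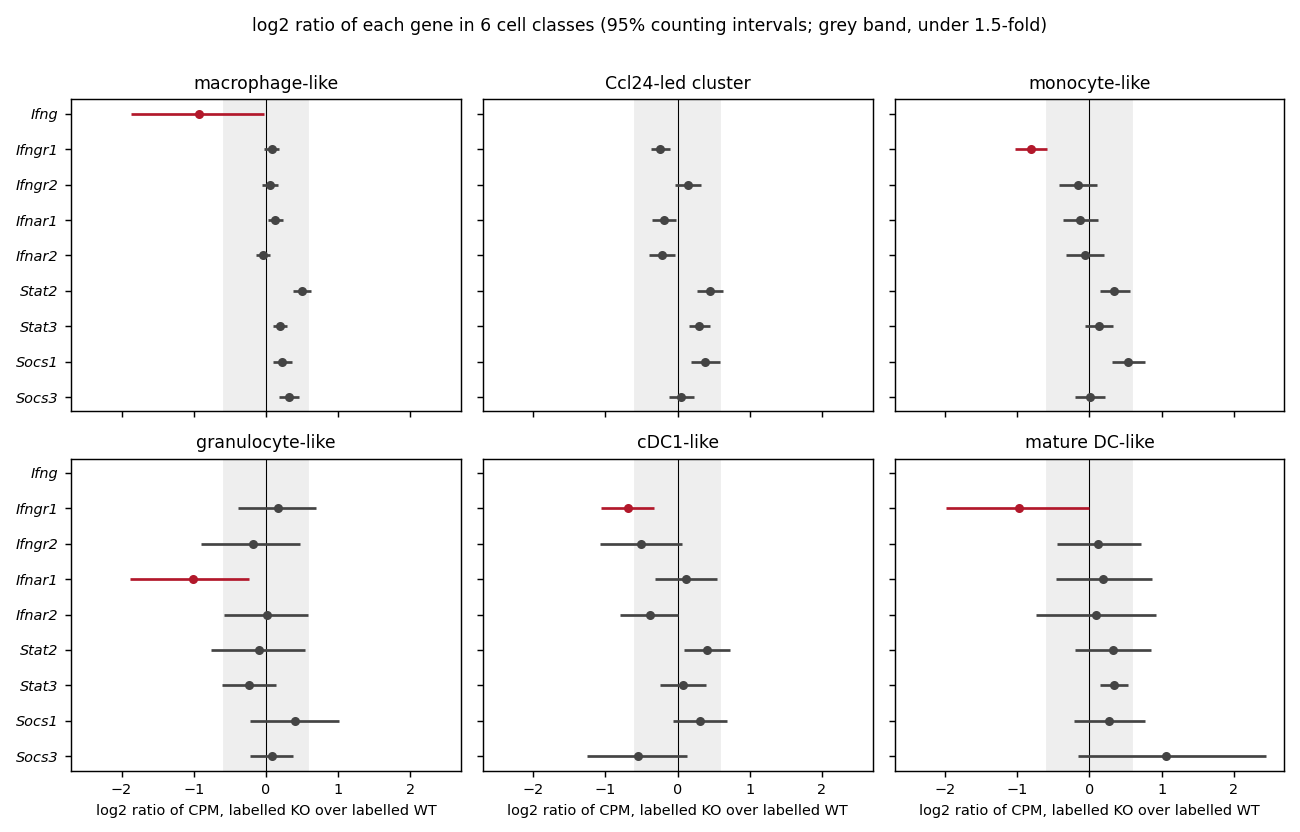
log2 ratio of CPM, labelled KO over labelled WT, of each member with at least 30 UMIs in 6 cell classes; bars are 95% counting intervals and the grey band marks less than 1.5-fold. Red points are past the limit, namely Ifng in macrophage-like cells, Ifngr1 in monocyte-like, cDC1-like and mature DC-like cells, and Ifnar1 in granulocyte-like cells. Stat2, Stat3, Socs1 and Socs3 lie above 0 in macrophage-like cells, inside the band.

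Of the 4 JAK kinases, and of the 6 genes that comprise the other STATs and Irf9, 0 were past the limit in macrophage-like cells, where 5.08% of all genes were called. Jak1, used by both interferon receptors, was at 120 and 113 CPM there. Among the 13 classes with at least 100 cells in each library, Jak2 (481 and 484 CPM) and Stat4 (340 and 319 CPM) were highest in mature DC-like cells. NK-like and pDC-like cells were not in this ranking, whereas they were in that of Stat3. Irf9, the partner of STAT2, was at 52.8 and 66.4 CPM in macrophage-like cells.

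Across a list of 59 further genes of the pathway, 43 had enough counts in macrophage-like cells, of which 3 were higher and 2 lower in the library labelled KO, where 2.96% of all genes were called higher and 2.12% lower. The median log2 ratio of the 43 was 0.06, against 0.00397 over all genes. Those higher were Usp18, a brake on type I interferon receptor signalling (14.2 and 26.8 CPM, 0.92), Cish, a STAT5-induced inhibitor (8.03 and 13.7 CPM, 0.77), and Il6st, which encodes gp130 (22.9 and 35.1 CPM, 0.62). Those lower were Ifnb1 (1.37 and 0.619 CPM) and the cytokine gene Csf3 (1.99 and 1.05 CPM), resting on 22 and 10 UMIs and on 32 and 17 UMIs. In monocyte-like cells 1 of 38 was called (against 4.98% of all genes), Il6, with 1 UMI labelled WT and 31 labelled KO (log2 ratio 3.21, 0.62 to 8.56). In granulocyte-like cells 1 of 21 was called (against 8.91% of all genes), Csf3, with 57 and 1 UMIs (log2 ratio -4.30, -9.63 to -1.77). In CD8 T-like cells, Socs2 (6.78 and 17.8 CPM, log2 ratio 1.39) and Irf9 (37.3 and 58.5 CPM, 0.65) were higher and the IL-21 receptor gene Il21r lower (98.3 and 59.4 CPM, -0.73) among 32 genes, where 5.46% of all genes were called. In mature DC-like cells 4 of 28 were higher and 1 lower (6.15% of all genes called), with the IL-10 receptor gene Il10ra at 69.0 and 127 CPM (0.88) and Stat6 at 103 and 68.4 CPM (-0.59). The others, Il12rb2, Cish and Socs4, rested on 9 to 12 UMIs labelled WT. In CD4 T-like cells 3 of 25 were higher (5.27% of all genes called), namely Il2rg (202 and 308 CPM, 0.61), Jak3 (52.3 and 106 CPM, 1.02) and Ptpn2 (38.4 and 81.9 CPM, 1.09). Elsewhere 3 of 39 were called in the Ccl24-led cluster (4.4% of all genes called), 1 of 29 in cDC1-like (5.81%), 2 of 20 in unsplit T-like (4.63%) and 1 of 8 in B-like cells (8.92%). In melanoma-like cells 2 of 31 were higher and 2 lower (7.42%). In nonclassical monocyte-like cells 0 of 31 were called (4.83%), and in cDC2-like cells 0 of 29 (4.61%).

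Genes known to be induced by STAT3 differed in both directions. In macrophage-like cells, 3 of 20 were higher and 2 lower, where 5.08% of all genes were called in either direction. Ratios were above 0 in 13 of 20, with a median log2 ratio of 0.23 against 0.00397 over all genes. Those higher included Il1rn, the interleukin-1 receptor antagonist (254 and 395 CPM, 0.64), and the transcription factor gene Nfil3 (30.6 and 46.7 CPM, 0.61), whereas the acute-phase genes Lcn2 (11.5 and 1.61 CPM, -2.84) and Saa3 (38.0 and 18.9 CPM, -1.01) were lower. Lcn2 is abundant in granulocytes, and summed granulocyte markers in macrophage-like cells were at 318 and 153 CPM, 1 of 8 higher in the library labelled KO; their part was not tested. In monocyte-like cells 2 of 20 were higher, among them Il1rn (360 and 578 CPM, 0.68), and 2 lower, Lcn2 (11.6 and 3.69 CPM, -1.66) and Cebpd (80.1 and 41.9 CPM, -0.93), where 4.98% of all genes were called in either direction. In granulocyte-like cells 4 of 18 were lower and 0 higher, where 3.25% of all genes were called lower and 5.66% higher, with a median of -0.21 against 0.11 over all genes: Saa3 (199 and 55.2 CPM), Icam1 (109 and 46.0 CPM), Lcn2 (2470 and 1110 CPM) and Pim1 (1817 and 1125 CPM). The granulocyte-like cluster led by Lcn2 held 305 and 110 cells and the other 359 and 177, and the summed basophil or mast cell markers of the class were at 51.0 and 267 CPM, as given above. The part of either was not tested. In CD8 T-like cells 0 of 13 were called, where 5.46% of all genes were. Spred2, named by the study as a METTL3 target upstream of STAT3, was at 19.2 and 20.7 CPM in macrophage-like cells. The study reported less SPRED2 protein in its KO macrophages and no clear change of the mRNA, and protein was not measured here.

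Genes known to be induced by interferons had higher counts in the library labelled KO in many classes. In macrophage-like cells 7 of 15 were higher and 0 lower in the library labelled KO, with a median log2 ratio of 0.49, where 2.96% of all genes were called higher. They were the regulator Irf7 (94.3 and 215 CPM, 1.19), the ubiquitin-like modifier Isg15 (185 and 404 CPM, 1.13), and the antiviral genes Ifit1 (1.03), Rsad2 (0.96), Oasl2 (0.89), Ifit3 (0.77) and Mx1 (0.73). The 8 genes not called had log2 ratios between -0.06 (Cxcl10) and 0.49 (Gbp4). In monocyte-like cells 14 of 15 genes had ratios above 0, 0 were called, where 2.29% of all genes were called higher, and the median was 0.39. The interferon-led cluster made up 80 of the 269 cells of this class in the library labelled WT, against 435 of 1027 in the library labelled KO, and the part of this shift in the ratios was not tested. In granulocyte-like cells 1 of 12 was called, Cxcl9, on 24 and 23 UMIs (25.5 and 70.5 CPM, 1.47), and in CD8 T-like cells 1 of 13, Isg15 (24.9 and 55.2 CPM, 1.15), where 5.66% and 3.15% of all genes were called higher. Other classes also had members past the limit. Called higher were 7 of 13 genes in cDC1-like (median 0.66), 6 of 15 in nonclassical monocyte-like (0.39), 5 of 15 in cDC2-like (0.44), 5 of 14 in mature DC-like (0.41), 4 of 15 in the Ccl24-led cluster (0.47), 4 of 9 in CD4 T-like (0.71) and 2 of 6 in unsplit T-like cells (0.45), with 0 lower. The share of all genes called higher in these classes lay between 2.24% (cDC2-like) and 4.13% (mature DC-like). In melanoma-like cells, which have no Cre, 8 of 14 were higher and 1 lower, where 3.98% and 3.44% of all genes were, with a median of 0.68. They included Ifit3 (11.7 and 31.1 CPM, 1.42) and Rsad2 (48.8 and 112 CPM, 1.19), and the gene lower was Cxcl10 (82.8 and 42.8 CPM, -0.95). The median of all genes lay between -0.00324 and 0.0906 in these classes. B-like cells had 0 of 4 higher and 1 lower, where 3.13% of all genes were called lower.

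**Figure D5:**
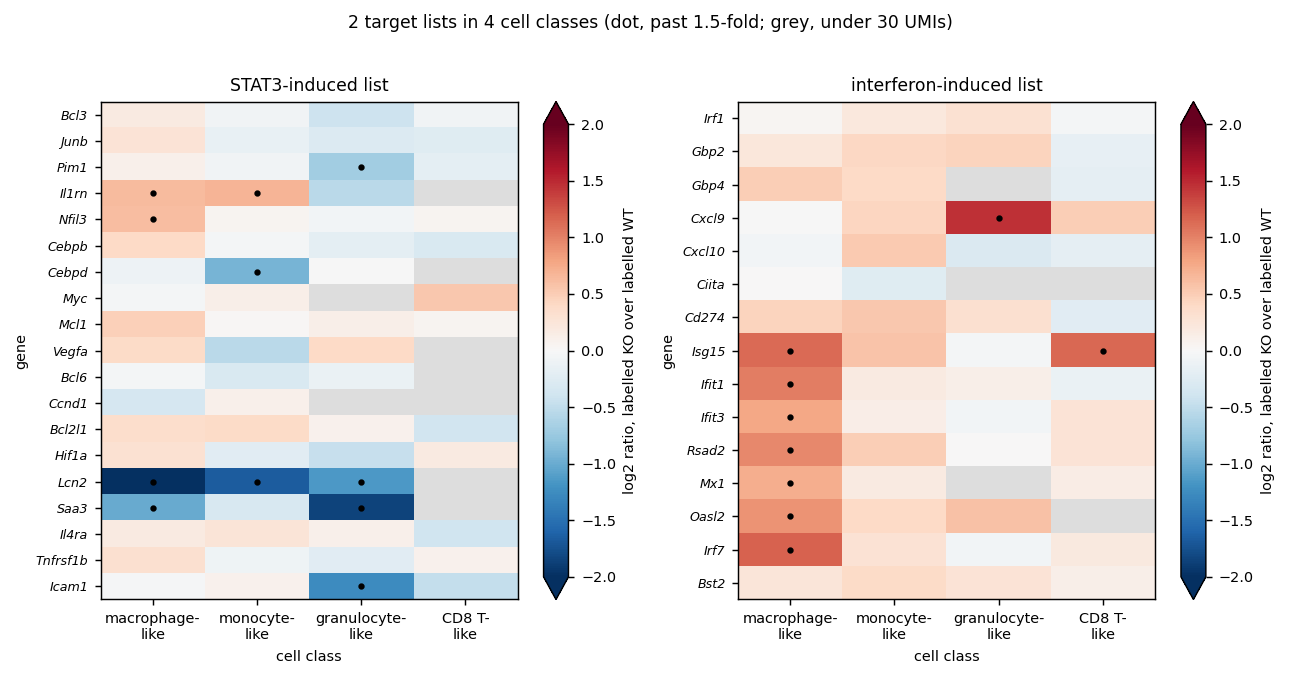
log2 ratio of CPM (colour scale, labelled KO over labelled WT) of genes induced by STAT3 (left) and by interferons (right) in 4 cell classes; a dot marks a gene past the 1.5-fold limit, and grey a gene with fewer than 30 UMIs. The interferon-induced list holds 7 dots in macrophage-like cells, all of them higher, and the STAT3-induced list, of which 19 genes are drawn, mixes Il1rn and Nfil3 above 0 with Lcn2 and Saa3 below.

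To describe how each member was distributed, its levels over the 26 points were compared with those of 11618 genes. Stat2 ran closest to Slfn5 (Pearson r 0.95) and Samhd1 (0.94), and Ifng to Cd96 and Nkg7 (both 0.96). Socs3 ran closest to the early-response gene Fos and to Picalm (both 0.91), and Ifngr2 to Ctsz (0.94) and App (0.91). For Ifngr1 the closest were Arhgap9 and Rnf166 (both 0.91), for Ifnar2 Lrrc25 and Nlrp1b (both 0.89), for Socs1 Psd4 and Clec2d (both 0.87) and for Stat3 Glipr2 (0.86) and Emd (0.83). Msr1 was among the closest to Ifnar1 (0.84). Among the members, Ifnar2 and Socs3 had an r of 0.77 and Ifnar1 and Stat2 of 0.75, whereas Stat3 and Socs3 had 0.03. These values describe classes that share 2 libraries and differ in depth, and they carry no test.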

How the data were processed

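Per the labels and the file headers, libraries were made with a 3′ single-cell kit, and the authors deposited raw UMI counts per gene and cell from Cell Ranger 4.0.0 against mm10. Cells with at least 200 genes and at most 10% mitochondrial UMIs were kept. Scrublet's own threshold marked 1 cell per library, so the highest-scoring cells at an assumed 0.8% per 1000 cells (256 and 532) were removed. Cells were clustered with scanpy 1.11.5 and leidenalg 0.10.2 (30 components, resolution 1) without the members and listed genes, named from marker genes, and sub-clusters mixing lineages were set aside. Naming thresholds were set after seeing the data. UMIs were summed per class and library. Mitochondrial, ribosomal and haemoglobin genes were left out of counts over all genes. With 1 library per genotype no test was made. edgeR 4.0.16 was used for an alternative scaling only. Named genes were the members, listed genes past the limit (up to 8 per list and class), JAK kinases, STATs, and 2 genes most like each member. Members and lists were chosen with earlier results of these data known. Intervals and ratios were tested on simulated data. Doublets and free RNA may remain. Values of some named genes are not reported here.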

Additional observations from a re-analysis of the deposited data

Results flagged for a closer look

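Some members had opposite directions in different cell classes; the differences between classes were not tested. Ifng had a log2 ratio (labelled KO over labelled WT) of 0.28 in CD8 T-like and -0.92 in macrophage-like cells. Ifngr1 had 0.44 in unsplit T-like and -0.98 in mature DC-like cells. Ifnar1 had 0.13 in macrophage-like and -1.01 in granulocyte-like cells. Within monocyte-like cells, Stat2 had 1.09 in the Dmkn-led cluster and -0.36 in the interferon-led cluster.

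Ifng UMIs were also found in cells outside every named class, 264 in the library labelled WT (69.5 CPM) and 288 in the library labelled KO (97.7 CPM). Of these, 126 and 102 lay in a cluster led by T-cell genes that also carried all 9 macrophage markers and was left unnamed, and 137 and 186 in a T-cell sub-cluster whose leading genes included Ccl24 and Thbs1.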

How the results depend on the processing

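No paired analysis was possible because each genotype had 1 library and no replicate numbers. Main results were recomputed under other choices of cells and scaling; in macrophage-like cells, clustering each library on its own gave 1562 and 985 cells in place of 1319 and 1850. For Socs3 in macrophage-like cells the log2 ratio of 0.32 became 0.46 with doublets kept, -0.049 with 15 principal components, -0.28 with each library clustered on its own and 0.12 with cells thinned to 1000 UMIs. For Stat3 in macrophage-like cells, 0.19 became 0.087 with 15 components, -0.036 with each library on its own and, added after seeing the data, 0.35 with the 3 myeloid groups summed. For Ifng in CD8 T-like cells, 0.28 became 0.47 without the top cell of each library. The difference in the share of CD8 T-like cells with an Ifng UMI, -2.84 percentage points (-9.65 to 3.93), became 4.21 with each library on its own. The 1 member past the limit in macrophage-like cells became 0 with at least 500 genes and at most 5% mitochondrial UMIs, at resolution 2, with 15 components and with each cell gated by its own score, and 2 after thinning. The 5 pathway genes became 2 with the stricter cell filter, with 15 components and with each library on its own. Ifng in macrophage-like cells turned to 0.010 with each cell gated by its own score, and Ifngr1 in cDC1-like cells to 0.089 with each library on its own. In each of these cases the cause was not tested. edgeR's TMM scaling shifted ratios by 0.21 in granulocyte-like cells and by less in the other classes. Ratios stayed below 0 under every alternative for Ifngr1 in monocyte-like cells (-0.98 to -0.36) but 2 of 12 alternatives moved it beyond its counting interval and ended the call, -0.36 with doublets kept and -0.55 with each cell gated by its own score. Stat2 in macrophage-like cells (0.50) moved in 6 of 12, among them to 0.026 with each library on its own and 0.68 with doublets kept, and Socs1 there (0.23) in 4 of 12, among them to 0.071 with 15 components and 0.60 after thinning; both stayed above 0. Stat2 in monocyte-like cells (0.35) moved in 5 of 12, from 0.064 with equal weight for each cluster to 1.09 without the interferon-led cluster, the latter added after seeing the data. Ifnar1 in granulocyte-like cells (-1.01) became -0.048 with mixed-lineage sub-clusters kept and -0.23 with the stricter cell filter. Without the top cell of each sub-cluster in each library, Ifng in cycling CD8 T-like cells fell from 1.16 to 0.62 and in the Gzme-led sub-cluster went from 0.16 to 0.59. The Ccl24-led cluster has no counterpart under reclustering, so those alternatives were not run for it.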
